A study of Mus musculus with 18 samples.

Results

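The genes described here are 10 members of the circadian clock, Arntl, Clock, Npas2, Per1, Per2, Per3, Cry1, Nr1d1, Nr1d2 and Dbp, chosen by gene symbol from 2 tables of RNA-seq values in mouse, 1 of liver and 1 of RAW264.7 macrophages. All 10 were found among the 21441 genes of each table. RAW264.7 cells are an established mouse line with macrophage properties. LPS, lipopolysaccharide, is a component of the wall of Gram-negative bacteria that innate immune cells sense. MIC-1 is moringa isothiocyanate-1, a plant isothiocyanate given here to reduce inflammation. Each table holds 9 libraries, 3 Control, 3 LPS and 3 LPS+MIC-1. The liver libraries came from wild type C57BL/6 male mice, kept in 12 h of light and 12 h of dark, whose age is not given in the sources used here. Control mice were injected with saline, LPS mice received 10 mg/kg LPS into the abdominal cavity, and LPS+MIC-1 mice took MIC-1 by gavage (80 mg/kg in 10% DMSO) for 3 days before the same injection. Mice without MIC-1 were gavaged with vehicle by the study's text, which gives the vehicle of the controls as 10% DMSO, although its methods state the gavage for MIC-1 alone. All mice were killed 16 h after the injection, and 3 livers of each group of 6 mice were sequenced. The hour of the day at which they were killed is not given in the sources used here, and each liver was sampled once, so no rhythm can be read from these data. The RAW264.7 cultures were controls, LPS cultures and cultures with LPS and 10 uM MIC-1. Their sample labels repeat the doses of the mice, and the LPS concentration and the hours of exposure of the sequenced cultures are not given in the sources used here. The columns of both tables carry the treatment and no replicate number, so libraries are numbered within a group by their order in the table. No source says that the libraries of a macrophage group came from separate cultures, so p-values measure the spread between these libraries, which may be technical.

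The clock runs in nearly every cell as a loop of transcription. The proteins of Arntl (also called Bmal1) and Clock, or its relative Npas2, bind as a pair to the E-box and activate the period genes (Per1, Per2, Per3), the cryptochrome genes (Cry1, Cry2), Nr1d1, Nr1d2 and Dbp. PER and CRY proteins then enter the nucleus and repress that pair, while the nuclear receptors encoded by Nr1d1 and Nr1d2, REV-ERB alpha and beta, repress Arntl at elements that the ROR receptors also bind. DBP binds the D-box and passes the rhythm on to output genes. In liver the loop times bile acid, lipid and xenobiotic metabolism, and in macrophages the REV-ERB receptors are known repressors of inflammatory genes.

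These links run through short sequence elements near the start sites, so the members' promoter windows of RefSeq, 250 bases before to 50 bases after a start (GRCm38.p6), were searched for 3 of them on both strands. They were the E-box CACGTG, the D-box TTATGTAA or TTACGTAA, and TNGGTCA. With any base at N, TNGGTCA is a loose form of the element that ROR and REV-ERB receptors bind. A match to it need not be that element. The table holds 13 windows for 9 members and none for Per2, and all 13 were placed in mm9 by exact match. Of 32851 windows of the same length, 7.15% held the E-box, 1.06% the D-box and 11% TNGGTCA. The windows of Arntl, Per3, Cry1 and Per1 held a match, and they are shown for these matches. The window of Nr1d1 is shown because this gene had the largest Log2FC of the members tested with LPS against control in both tissues. Capitals mark the matched elements, and each run reads 5′ to 3′ on the strand of its gene and ends at the base before the start site. The windows of Arntl (chr7:120350729-120350978, plus strand), Per3 (chr4:150418775-150419024, minus strand), Cry1 (chr10:84647800-84648049, minus strand) and Nr1d1 (chr11:98636692-98636941, minus strand) are given in mm9 and lie before the annotated gene, outside any exon of GENCODE vM1. For Per1, whose window overlaps annotated Per1 exons, only the 30 bases around the E-box are shown (chr11:68912273-68912302, plus strand).
Arntl: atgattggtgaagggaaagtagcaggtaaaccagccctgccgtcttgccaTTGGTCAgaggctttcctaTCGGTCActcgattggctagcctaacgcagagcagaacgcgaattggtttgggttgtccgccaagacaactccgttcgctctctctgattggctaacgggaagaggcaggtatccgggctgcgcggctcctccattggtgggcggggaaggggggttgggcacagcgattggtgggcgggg
Per3: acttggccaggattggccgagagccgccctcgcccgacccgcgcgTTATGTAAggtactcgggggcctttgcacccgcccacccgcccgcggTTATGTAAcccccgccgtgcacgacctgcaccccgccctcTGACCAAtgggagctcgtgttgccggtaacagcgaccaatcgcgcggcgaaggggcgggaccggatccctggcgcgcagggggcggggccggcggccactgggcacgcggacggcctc
Cry1: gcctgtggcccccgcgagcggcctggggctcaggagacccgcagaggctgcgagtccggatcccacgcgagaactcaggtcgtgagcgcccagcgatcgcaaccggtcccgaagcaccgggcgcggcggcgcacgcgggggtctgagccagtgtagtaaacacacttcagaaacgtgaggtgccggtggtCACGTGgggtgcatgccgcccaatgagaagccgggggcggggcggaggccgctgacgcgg
Nr1d1: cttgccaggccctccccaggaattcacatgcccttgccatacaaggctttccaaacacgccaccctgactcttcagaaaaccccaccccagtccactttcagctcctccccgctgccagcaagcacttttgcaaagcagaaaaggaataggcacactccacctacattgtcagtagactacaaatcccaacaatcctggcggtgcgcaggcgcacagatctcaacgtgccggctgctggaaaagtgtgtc
Per1: agcacccaagtcCACGTGcagggatgtgtg

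The first Arntl window matched TNGGTCA at 2 places, as TTGGTCA and TCGGTCA, starting 200 and 181 bases before the start site. Its second window, which overlaps the first, held both of these. It also held TAGGTCA 30 bases after its start, outside the run printed above. The Per3 window held 2 D-boxes, 205 and 158 bases before the start, and 1 match to TNGGTCA on the opposite strand (TGACCAA) at 118 bases. The E-boxes of Cry1 and Per1 started 60 and 166 bases before their starts. No match was found in the windows of Nr1d1, Nr1d2, Dbp, Npas2 or Clock, nor in the second window of Per1, which says only that these letters are not in these windows. The matches are a description and no measure of binding.

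All 10 members are annotated in mm9 as protein-coding genes. Nr1d1 lies on chr11:98629246-98636647 (minus strand) and Per1 on the same chromosome at chr11:68908719-68923462 (plus strand), Dbp on chr7:52960458-52965525 and Arntl on chr7:120350979-120457636 (both plus strand), and Nr1d2 on chr14:19036568-19071641 (minus strand). Cry1 lies on chr10:84594447-84647799, Per2 on chr1:93312561-93355907, Per3 on chr4:150377761-150418774 and Clock on chr5:76639992-76733817, all on the minus strand, and Npas2 on chr1:39250576-39420079 on the plus strand. The exons of Nr1d1 share 263 bases with Thra, the thyroid hormone receptor alpha gene on the opposite strand, and those of Dbp share 491 bases with Sphk2, a sphingosine kinase gene on the opposite strand. Whether the libraries keep the strand is not given in the sources used here, so reads from these shared bases may belong to either gene.

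Values are FPKM, fragments per kilobase of transcript, with each library scaled by its own size factor and not to a fixed total. They can be compared between genes since they are per length. Their sum per library ranged from 590303 to 1063784 in liver and from 557136 to 1137533 in macrophages. From the steps between low FPKM values, depth was estimated at 4.31 to 10.1 M reads (M for mega) in the liver controls, 11.2 to 17.7 M in the treated livers and 17.2 to 22.3 M in the macrophages, so depth differed with the group in liver. Differences are log2 fold changes (Log2FC) of log2(FPKM + 0.5), which understate the change of genes with low FPKM. They were tested with limma over the genes with a mean FPKM above 1, 10147 in liver and 9905 in macrophages, and their p-values were adjusted by Benjamini-Hochberg over all of these. A gene was called at an absolute Log2FC above 1 with an adjusted p below 0.05 in liver and below 0.01 in macrophages, thresholds that follow the study's. In liver 8 members entered the test, all but Clock and Per3, and in macrophages 6, all but Clock, Npas2, Per2 and Per3. Of the genes tested, 957 in liver and 271 in macrophages were listed at 0 in some library, and 97 of the former had a mean FPKM above 10, so a value of 0 for Arntl, Clock or Per3 is given as listed at 0 and not as absence.

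Macrophage LPS library 2 stood apart. Over the tested genes its log2 values had a Pearson r of 0.981 to 0.990 with the control libraries and of 0.860 and 0.862 with the other LPS libraries. The study's own analysis of the macrophages names a pair of LPS libraries. The macrophage calls of the genes tested are therefore given over all 9 libraries and over the 8 without this library, and the latter fit was chosen after seeing the data. Pairs of libraries were also uneven in their likeness. The squared difference between libraries 1 and 3 of each macrophage group was 1.91 to 2.54 times its sampling variance, against 10.4 to 205 times for pairs with library 2, and in liver it was 2.79 to 8.54 times for 1 pair in each group and 48.3 to 114 times for the others. All exceeded the sampling noise, and all libraries were counted separately. The macrophage LPS group of the 8 libraries is such a close pair.

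The tissue labels were checked against markers. The summed FPKM of 7 hepatocyte markers was 39755 to 77125 in the liver libraries and 2.84 to 13.5 in the macrophages, where Hnf4a was listed at 0 in every library. The 6 macrophage markers found summed to 10951 to 13387 in the macrophages. In liver they summed to 28.6 to 43.2 in controls, 127 to 625 after LPS, and 127 to 436 after LPS+MIC-1, with the F4/80 gene Emr1 listed at 0 in every LPS+MIC-1 library and Ptprc, which encodes CD45, in every control library. The 6 neutrophil markers found summed to 35.8 to 51.8, 327 to 402 and 177 to 426 in the same order, with Mpo listed at 0 in every control library. The 5 endothelial markers summed to 35.4 to 38.7 in liver controls and to 12.6 to 20.2 and 13.0 to 31.0 in the treated groups, none of them at 0 throughout a group. With LPS against control 2 of the 5 were called lower and 1 higher, and with LPS+MIC-1 against control 0 were called. The 5 Kupffer cell markers summed to 29.2 to 51.0, 36.9 to 53.9 and 50.9 to 96.1, the 5 stellate cell markers to 118 to 232, 103 to 141 and 68.3 to 130, and the 5 bile duct markers to 73.4 to 89.9, 101 to 105 and 75.6 to 90.4. Against control, 1 Kupffer cell marker was called higher and 2 lower with each treatment. The median Log2FC of the 5 was -0.49 with LPS and -0.74 with LPS+MIC-1, so their sum does not describe the list as a whole. The marker sums of other cells thus differed between the liver groups, although the Kupffer cell and endothelial markers did not all move the same way. The part of such cells in the clock gene differences below was not tested. The libraries of a liver group were also uneven, and not all treated livers grouped by treatment. Over the tested genes LPS library 2 had a Pearson r of 0.9475 with LPS+MIC-1 library 2, against 0.889 and 0.893 with LPS libraries 1 and 3. LPS+MIC-1 library 1 had 0.955 with LPS library 3 and 0.935 with LPS+MIC-1 library 2. Libraries 1 and 3 of each treated group had 0.979 with each other. Cd14, the LPS co-receptor and the highest macrophage marker in the LPS livers, was 84.2 FPKM in liver LPS library 2 against 569 and 552 FPKM in LPS libraries 1 and 3, and 407 FPKM in LPS+MIC-1 library 2 against 56.7 and 61.4 FPKM in LPS+MIC-1 libraries 1 and 3. The macrophage marker sums of LPS libraries 1, 2 and 3 were 625, 127 and 606, so Cd14 made up most of each. The range of these sums thus mostly describes Cd14 and not the macrophage markers together. In liver, as in any bulk sample, fewer cells of a type and less RNA per cell cannot be told apart.

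In the control livers, the 2 REV-ERB genes and the output factor Dbp stood above the other members. Nr1d1 had the highest mean (44.7 ± 12.5 FPKM, SD, n = 3), above the range of every other member. Nr1d2 (16.6 ± 3.22) and Dbp (14.9 ± 5.89) followed, with overlapping ranges. Per2 (4.86 ± 1.42), Cry1 (3.48 ± 0.560) and Per1 (2.25 ± 0.765) formed a lower group in which neighbours overlapped, and Npas2 stood at 1.03 ± 0.165. Clock, Per3 and Arntl were at or below 1.75 FPKM in each control library. With LPS the order turned over, and Per1 was the highest member at 9.44 ± 1.98 FPKM, above the range of Cry1 at 5.35 ± 1.24.

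**Figure D1:**
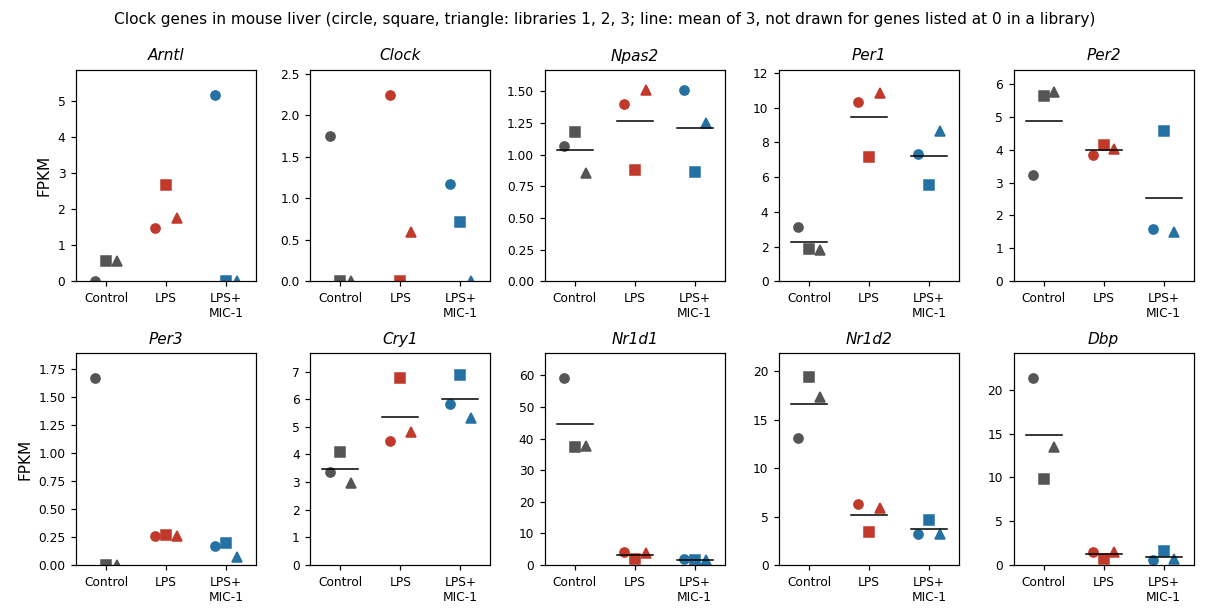
FPKM (vertical axes, linear, starting at 0) of the 10 clock genes in the 9 liver libraries, with circle, square and triangle for libraries 1, 2 and 3 of Control (grey), LPS (red) and LPS+MIC-1 (blue), and a line at the mean of 3 libraries except where a gene is listed at 0 in a library. For Nr1d1, Nr1d2 and Dbp every control library is above every treated library, and for Per1 every control library is below them.

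The comparison of LPS with control livers asked how the inflamed liver differed from the liver of saline-injected mice. The 3 genes directly downstream of the activating pair that stood highest in the controls fell, and Per1 rose. Nr1d1 was 59.1, 37.4 and 37.6 FPKM in the control livers and 4.01, 1.91 and 3.77 FPKM in the LPS livers. Every LPS liver was below every control liver, and the mean was 13.8-fold lower. Dbp was 21.3, 9.78 and 13.5 FPKM in controls and 1.46, 0.740 and 1.46 FPKM with LPS. Its groups were also apart, with a mean 12.2-fold lower. Nr1d2, the second REV-ERB gene, was 13.1, 19.4 and 17.3 FPKM in controls and 6.31, 3.42 and 5.90 FPKM with LPS, 3.19-fold lower in the mean and without overlap. Per1, whose protein represses the activating pair and whose gene also answers to glucocorticoid and cAMP signals, was 3.14, 1.83 and 1.79 FPKM in controls and 10.3, 7.18 and 10.8 FPKM with LPS. It was 4.19-fold higher in the mean, and the lowest LPS liver was above the highest control.

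With limma, the Log2FC was -3.62 for Nr1d1 (SE 0.284, adjusted p = 0.000290), -3.12 for Dbp (SE 0.362, adjusted p = 0.00124) and -1.61 for Nr1d2 (SE 0.267, adjusted p = 0.00497). It was 1.87 for Per1 (SE 0.264, adjusted p = 0.00288). Thus 4 of the 8 members tested were called, 1 higher and 3 lower, where 24.6% of all genes tested were called, 13.4% higher and 11.2% lower. The median Log2FC over the 8 members was -0.01, against 0.15 over all genes tested. The groups of 6 of the 8 members did not overlap (Per1, Cry1 and Arntl higher, Nr1d1, Nr1d2 and Dbp lower), as did those of 45% of all genes tested (24.2% higher and 20.8% lower). Each of the 4 calls held when any 1 of the 9 liver libraries was left out. When the 2 closest libraries of each group were averaged, Nr1d1 and Dbp were called and Nr1d2 and Per1 were not.

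The activators and the remaining repressors gave no call. Arntl was listed at 0 in 1 control liver and at 0.571 and 0.559 FPKM in the others, and it was 1.48, 2.66 and 1.77 FPKM in the LPS livers. Its LPS livers were all above its controls, but the Log2FC of 1.55 had an SE of 0.879 and an adjusted p of 0.191 with limma, and only about 9.03 and 8.99 reads stood behind the control values above 0. Arntl was called when only the control and LPS groups were fitted (limma adjusted p = 0.0430) or when LPS+MIC-1 library 1 was left out of the fit. Cry1, the strongest repressor of the activating pair, was 3.37, 4.08 and 2.98 FPKM in controls and 4.48, 6.77 and 4.81 FPKM with LPS (Log2FC 0.55, limma adjusted p = 0.0711). Per2 overlapped between 3.22, 5.62 and 5.74 FPKM in controls and 3.84, 4.14 and 4.02 FPKM with LPS (Log2FC -0.21, SE 0.373). Npas2, which can stand in for CLOCK, was 1.07, 1.18 and 0.854 FPKM in controls and 1.40, 0.882 and 1.51 FPKM with LPS (Log2FC 0.19, SE 0.267). Per3 was 1.67 FPKM in control library 1, listed at 0 in the other two, and 0.264, 0.267 and 0.260 FPKM with LPS. Clock was 1.75 FPKM in control library 1 and listed at 0 in the other two, and it was 2.25, 0 and 0.598 FPKM with LPS. Neither Per3 nor Clock gives a direction.

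Nr1d1 and Thra moved together in liver. Thra was 13.3, 6.44 and 5.35 FPKM in the controls and 2.16, 3.69 and 1.22 FPKM with LPS, and the part of the shared bases in the values of Nr1d1 was not tested. Sphk2, which shares bases with Dbp, was 19.3 to 23.4 FPKM in the controls and 19.3 to 21.2 FPKM with LPS, so Sphk2 stayed close to its control level while Dbp was lower.

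LPS+MIC-1 was set against the same control livers, so these values share their controls with the comparison above. Nr1d1 was 1.82, 1.54 and 1.56 FPKM in the LPS+MIC-1 livers, a mean of 1.64 ± 0.155 (SD, n = 3), which is 27.2-fold below the controls. Dbp was 0.592, 1.57 and 0.721 FPKM, 15.5-fold below the controls. Nr1d2 was 3.19, 4.61 and 3.23 FPKM, 4.51-fold below the controls. Per1 was 7.35, 5.58 and 8.67 FPKM, 3.20-fold above them. All 4 genes lay outside the range of the controls in every LPS+MIC-1 liver. The Log2FC with limma was -4.37 for Nr1d1 (SE 0.284, adjusted p = 0.000213), -3.38 for Dbp (SE 0.362, adjusted p = 0.000947), -2.03 for Nr1d2 (SE 0.267, adjusted p = 0.00192) and 1.498 for Per1 (SE 0.264, adjusted p = 0.00496). Again 4 of 8 members were called, where 25.2% of all genes tested were (13.8% higher and 11.5% lower). The groups of 5 of the 8 did not overlap, these 4 and Cry1, as did those of 54.6% of all genes tested (30.5% higher and 24.1% lower). With the libraries scaled to the same sum of FPKM, Per1 fell under the fold limit (Log2FC 0.93, limma adjusted p = 0.0154) and Per2 was called instead, with 535 genes called higher and 2584 lower. With the closest 2 libraries of each group averaged, Nr1d2 (limma adjusted p = 0.0681) and Per1 (limma adjusted p = 0.109) were not called.

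Cry1 was 5.84, 6.89 and 5.31 FPKM with LPS+MIC-1, above every control, with a Log2FC of 0.71 under the fold limit (limma adjusted p = 0.0285). Per2 was 1.58 and 1.49 FPKM in LPS+MIC-1 libraries 1 and 3 and 4.55 FPKM in library 2, which lay among the controls. Its Log2FC of -0.92 had an adjusted p of 0.0832 with limma, and Per2 was called without LPS+MIC-1 library 2 or without control library 1. Arntl was 5.18 FPKM in LPS+MIC-1 library 1 and listed at 0 in the other two. Without that library its Log2FC turned from 0.44 to -0.73, so no direction can be given. Npas2 was 1.51, 0.863 and 1.25 FPKM, Clock was 1.17, 0.712 and 0.00757 FPKM, and Per3 was 0.166, 0.198 and 0.0750 FPKM. Npas2 and Clock stayed within or across the range of the controls, and Per3 lay between its controls at 0 and its control at 1.67 FPKM.

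The comparison of LPS+MIC-1 with LPS livers asked what the pretreatment changed in the inflamed liver. No member was called by limma, and 0 of the 10147 genes tested was, with 364 genes at an unadjusted p below 0.05. The smallest adjusted p of any gene was 0.0546. Without LPS library 2, 35 genes were called and no member was. With lower weights for libraries far from their group, 631 genes were called. The lowest weights were those of LPS library 2 (0.126), control library 1 (0.183) and LPS+MIC-1 library 2 (0.284). The part of each of these libraries in that count was not tested. Nr1d1 was the 1 member whose groups did not overlap, where 9.75% of all genes tested had no overlap (5.1% higher and 4.64% lower). Its LPS+MIC-1 livers at 1.54 to 1.82 FPKM were below its LPS livers at 1.91 to 4.01 FPKM, with a Log2FC of -0.75 (SE 0.284, limma adjusted p = 0.997). The Log2FC was -0.43 for Nr1d2 (SE 0.267), -0.37 for Per1 (SE 0.264), -0.26 for Dbp (SE 0.362) and -0.71 for Per2 (SE 0.373), each with overlapping groups. Per2 alone was called when libraries far from their group were given a lower weight (Log2FC -1.07, limma adjusted p = 0.00300), in a fit that called 356 genes higher and 275 lower of the 10147. Differences of the size of the standard errors given here could not be detected with 3 livers a group.

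The ratio between 2 members within a library depends little on how libraries were scaled. On the log2(FPKM + 0.5) scale, Per1 minus Nr1d1 was -4.03, -4.02 and -4.06 in the control livers. It was 1.26, 1.67 and 1.41 in the LPS livers and 1.76, 1.57 and 2.15 in the LPS+MIC-1 livers. The order of the 2 genes was thus opposite in control and treated livers in every library. Nr1d1 minus Dbp was 1.45, 1.88 and 1.44 in the controls, 1.21, 0.96 and 1.12 in the LPS livers and 1.09, -0.02 and 0.75 in the LPS+MIC-1 livers, so those genes, which fell together, stayed closer to each other.

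**Figure D2:**
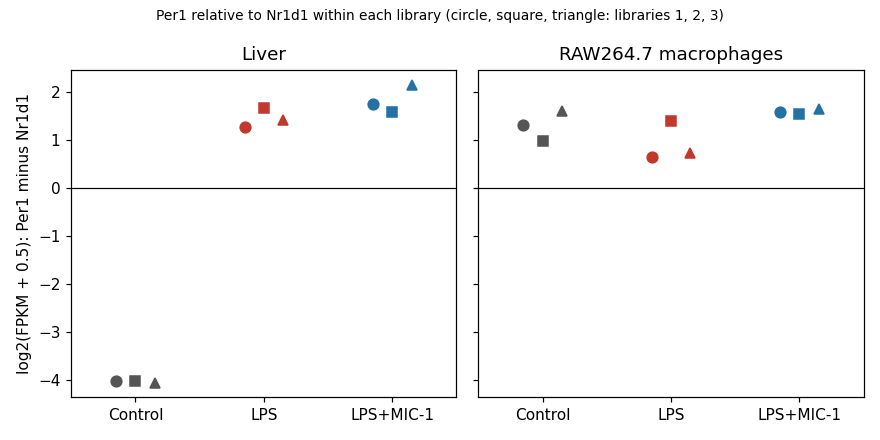
Difference between Per1 and Nr1d1 on the log2(FPKM + 0.5) scale (vertical axis) within each library of liver (left) and RAW264.7 macrophages (right), by group, with circle, square and triangle for libraries 1, 2 and 3. The control livers sit at -4.06 to -4.02 and all other libraries of both tissues lie above 0, between 0.63 and 2.15.

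In the control macrophages the order of the members was another. Per1 had the highest mean (7.28 ± 0.191 FPKM, SD, n = 3), above the ranges of Cry1 (5.79 ± 0.329) and Arntl (5.63 ± 1.43), which overlapped. Nr1d2 (3.28 ± 0.219), Nr1d1 (2.70 ± 0.658) and Dbp (2.39 ± 0.691) followed, and the first 2 of these overlapped, as did the last 2. Per2 was 0.102 to 0.158 FPKM and Per3 0 to 0.239 FPKM. Npas2 was 0 to 0.0497 FPKM over all 9 libraries, behind which stood at most 4.05 estimated reads. Clock was at most 0.351 FPKM in any macrophage library and listed at 0 in 5 of the 9, with up to 50.4 reads in the library where it was highest. The tables were normalized separately, so levels are not tested between the tissues.

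**Figure D3:**
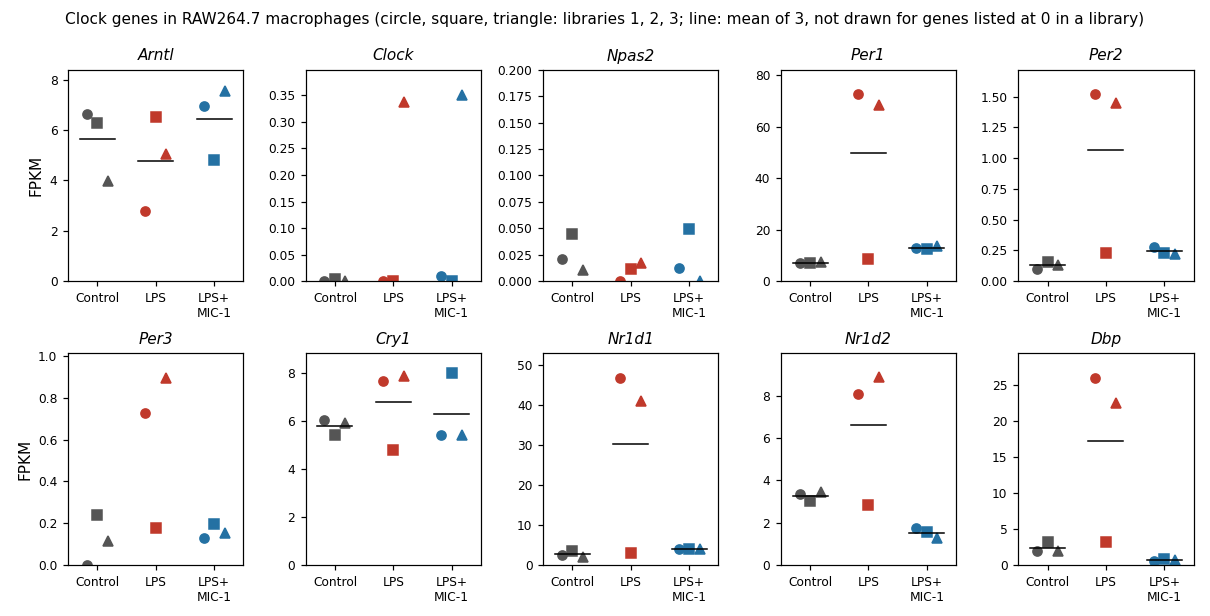
FPKM (vertical axes, linear, starting at 0) of the 10 clock genes in the 9 RAW264.7 libraries, with circle, square and triangle for libraries 1, 2 and 3 of Control (grey), LPS (red) and LPS+MIC-1 (blue), and a line at the mean of 3 libraries except where a gene is listed at 0 in a library. LPS libraries 1 and 3 stand far above the rest for Per1, Nr1d1 and Dbp, and LPS library 2 lies close to the controls.

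The comparison of LPS with control macrophages asked how the cells answered LPS. In LPS libraries 1 and 3 the clock genes Per1, Nr1d1, Dbp, Nr1d2, Per2 and Per3 were higher than in any control, and LPS library 2 was at or near the control level for each. Nr1d1 was 2.56, 3.42 and 2.13 FPKM in controls, 46.7 and 41.0 FPKM in LPS libraries 1 and 3 and 2.93 FPKM in library 2. Per1 was 7.12, 7.22 and 7.49 FPKM in controls, 72.8 and 68.5 FPKM in LPS libraries 1 and 3 and 8.49 FPKM in library 2. Dbp was 1.98, 3.18 and 2.00 FPKM in controls, 26.0 and 22.5 FPKM in LPS libraries 1 and 3 and 3.15 FPKM in library 2. The pair of high libraries thus agreed closely with each other for all 3 genes. Nr1d2 was 3.37, 3.03 and 3.45 FPKM in controls and 8.09, 2.82 and 8.87 FPKM in LPS libraries 1, 2 and 3. Per2 was 0.102, 0.158 and 0.135 FPKM in controls and 1.52, 0.232 and 1.45 FPKM with LPS in the same order. Per3 was listed at 0 in control library 1 and at 0.239 and 0.117 FPKM in the others, and it was 0.729, 0.179 and 0.892 FPKM with LPS.

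Over all 9 libraries limma called none of the 6 members tested and 0 of the 9905 genes tested, with 4928 genes at an unadjusted p below 0.05. The Log2FC was 2.58 for Nr1d1 (SE 0.878), 2.20 for Per1 (SE 0.704), 2.20 for Dbp (SE 0.673) and 0.77 for Nr1d2 (SE 0.366), and the first 3 shared an adjusted p of 0.0777. Per1 alone had groups that did not overlap, as had 33.3% of all genes tested (16.1% higher and 17.2% lower). Over the 8 libraries 4 of the 6 were called, all higher, where 34.2% of all genes tested were called and 16.3% were called higher. These 4 and Cry1 had groups that did not overlap, all higher, as had 85.6% of all genes tested (42.2% higher and 43.4% lower). There the Log2FC was 3.81 for Nr1d1 (SE 0.159, adjusted p = 1.38e-06 with limma), 3.19 for Per1 (SE 0.0686, adjusted p = 4.40e-07), 3.12 for Dbp (SE 0.192, adjusted p = 5.39e-06) and 1.25 for Nr1d2 (SE 0.130, adjusted p = 6.72e-05). In FPKM the means were 16.2-fold, 9.70-fold, 10.2-fold and 2.58-fold above the controls. With LPS library 2 included they were 11.2-fold, 6.86-fold, 7.21-fold and 2.01-fold above them. Without the filter on low values, Per2 (Log2FC 1.65, SE 0.0652) and Per3 (Log2FC 1.10, SE 0.158) also passed the thresholds over the 8 libraries, with limma adjusted p of 8.08e-06 and 0.00113, and neither did over the 9 (adjusted p = 0.119 for each). That fit of 16179 genes called 3513 over the 8 libraries, 1695 of them higher.

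The sum of FPKM in LPS libraries 1 and 3 was about that of 2 control libraries together, so the size of these values depends in part on scaling. With all libraries scaled to the same sum, the median Log2FC of all genes tested moved from -0.02 to -0.93 over the 8 libraries. Nr1d1, Per1 and Dbp were still called, at 2.88, 2.23 and 2.21, while Nr1d2 was not (Log2FC 0.34, limma adjusted p = 0.0541) and Arntl was called lower (Log2FC -1.36, limma adjusted p = 0.00237), as were 4577 of the 9905 genes. As deposited, Arntl was 6.62, 6.28 and 3.997 FPKM in controls and 2.79, 6.52 and 5.05 FPKM with LPS, with overlapping groups over all 9 libraries and over the 8 (Log2FC -0.25, SE 0.316, and -0.49, SE 0.296). Cry1 was 6.05, 5.42 and 5.91 FPKM in controls and 7.68, 4.77 and 7.86 FPKM with LPS, and its Log2FC of 0.39 over the 8 libraries (SE 0.161, limma adjusted p = 0.0554) turned to -0.53 with equal sums, so it has no direction here.

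Thra moved with Nr1d1 in the macrophages as well. It was 1.72, 2.90 and 2.55 FPKM in controls, 12.9, 2.51 and 14.9 FPKM in LPS libraries 1, 2 and 3, and 4.63, 2.64 and 4.81 FPKM with LPS+MIC-1, and the part of the shared bases was not tested. Sphk2 was 19.6 to 22.2 FPKM in controls, 38.0, 25.3 and 34.8 FPKM with LPS and 47.3 to 52.9 FPKM with LPS+MIC-1, where Dbp was lowest.

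The comparison of LPS+MIC-1 with LPS macrophages asked what MIC-1 changed in the stimulated cells. The 3 LPS+MIC-1 libraries were close to each other and far below LPS libraries 1 and 3 for each gene that was high there. Nr1d1 was 3.99, 3.96 and 4.04 FPKM with LPS+MIC-1, 10.98-fold below the mean of LPS libraries 1 and 3. Per1 was 13.0, 12.6 and 13.6 FPKM, 5.41-fold below it. Dbp was 0.592, 0.792 and 0.706 FPKM, 34.8-fold below it, and Nr1d2 was 1.74, 1.57 and 1.26 FPKM, 5.57-fold below it. Below the mean of all 3 LPS libraries, Nr1d1, Per1, Dbp and Nr1d2 were 7.56-fold, 3.82-fold, 24.7-fold and 4.33-fold lower. Dbp and Nr1d2 with LPS+MIC-1 were also below LPS library 2, at 3.15 and 2.82 FPKM, whereas Nr1d1 and Per1 were above it, at 2.93 and 8.49 FPKM.

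Over all 9 libraries none of the 6 members was called, where 3.87% of all genes tested were (2.06% higher and 1.81% lower). The groups of Dbp and Nr1d2 did not overlap, as was so for 36.1% of all genes tested (17.9% higher and 18.2% lower). The Log2FC was -3.45 for Dbp (SE 0.673, limma adjusted p = 0.0117), -1.68 for Nr1d2 (SE 0.366, limma adjusted p = 0.0178), -2.07 for Nr1d1 (SE 0.878, limma adjusted p = 0.125) and -1.40 for Per1 (SE 0.704, limma adjusted p = 0.183). Over the 8 libraries the same 4 genes were called, all lower, where 23.3% of all genes tested were called and 12% were called lower. Their groups did not overlap, as was so for 80.3% of all genes tested (40.3% higher and 39.9% lower). There the Log2FC was -4.37 for Dbp (SE 0.192, adjusted p = 3.23e-06 with limma), -3.30 for Nr1d1 (SE 0.159, adjusted p = 4.44e-06), -2.39 for Per1 (SE 0.0686, adjusted p = 9.60e-07) and -2.16 for Nr1d2 (SE 0.130, adjusted p = 8.55e-06). All 4 calls held with equal sums of FPKM, at -3.66, -2.52, -1.60 and -1.44, where Arntl was also called, higher by a Log2FC of 1.38. That scaling moved the calls of all 9905 genes from 1121 higher and 1189 lower to 3602 higher and 269 lower. Per2 was 0.280, 0.228 and 0.219 FPKM with LPS+MIC-1 and its Log2FC without the filter was -1.42 over the 8 libraries (limma adjusted p = 2.04e-05), where 1221 of 16179 genes were called lower. Per3 was 0.128, 0.197 and 0.153 FPKM, and its Log2FC of -0.99 did not reach the fold limit (limma adjusted p = 0.00241). Cry1 at 5.42, 7.99 and 5.42 FPKM and Arntl at 6.94, 4.83 and 7.54 FPKM overlapped with the LPS libraries.

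Against the control macrophages, which both treatments share, the members split after LPS+MIC-1. Dbp and Nr1d2 were below every control, at 3.43-fold and 2.15-fold lower in the mean. Per1 and Nr1d1 were above every control, at 1.795-fold and 1.48-fold higher. Of all genes tested 66.4% did not overlap here (31.4% higher and 34.9% lower). S100a8, the neutrophil marker that made up most of that list's sum in the macrophages, was 1.46 to 2.40 FPKM in controls, 3.56 to 39.2 FPKM with LPS and 651 to 718 FPKM with LPS+MIC-1, where Mpo and Ngp stayed below 1 FPKM, and its part in these differences was not tested. Over the 8 libraries Dbp was called (Log2FC -1.25, SE 0.172, limma adjusted p = 0.000517), where 15.7% of all genes tested were called and 8.2% were called lower. Nr1d2 (Log2FC -0.91, SE 0.117, limma adjusted p = 0.000366) and Per1 (Log2FC 0.80, SE 0.0613, limma adjusted p = 3.10e-05) stayed under the fold limit, and Nr1d1 (Log2FC 0.51, SE 0.142, limma adjusted p = 0.0160) under both limits. Over all 9 libraries the Log2FC values were the same, no member was called (5.59% of all genes tested were, 3.27% higher and 2.32% lower), and the limma adjusted p of Dbp was 0.208. LPS library 2 enters this comparison only through the estimate of the spread. On the log2(FPKM + 0.5) scale Per1 minus Dbp was 1.07 to 1.68 in the controls, 1.30 to 1.58 in the 3 LPS libraries and 3.34 to 3.63 with LPS+MIC-1, so with LPS the 2 genes moved by about the same amount and with LPS+MIC-1 they did not.

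**Figure D4:**
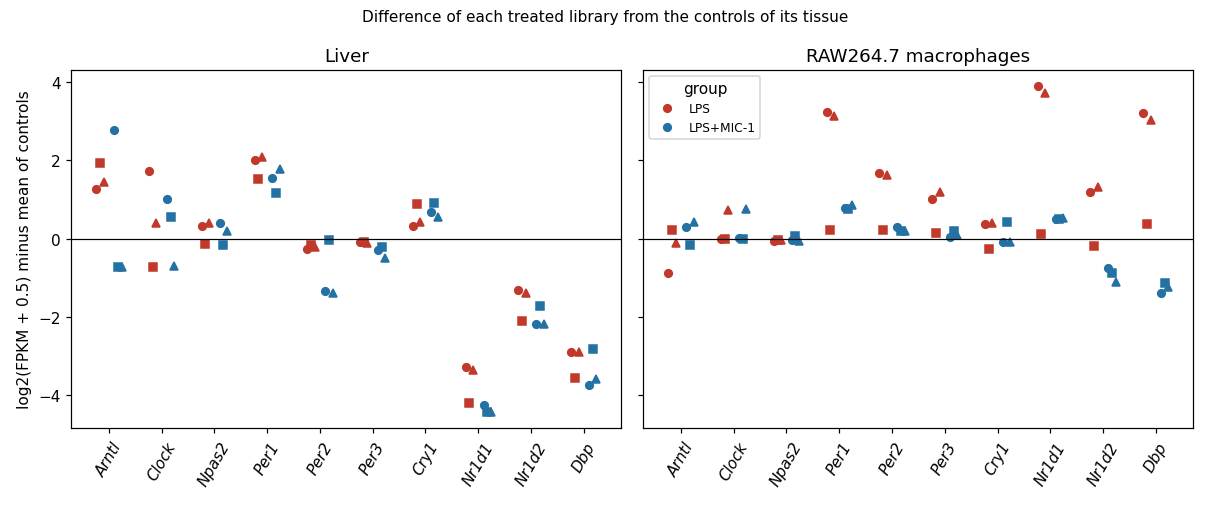
Difference of each LPS (red) and LPS+MIC-1 (blue) library from the mean of the controls of its tissue on the log2(FPKM + 0.5) scale (vertical axis) for the 10 clock genes in liver (left) and RAW264.7 macrophages (right), with circle, square and triangle for libraries 1, 2 and 3. In liver Nr1d1, Nr1d2 and Dbp lie below 0 and Per1 above 0 in all 6 treated libraries, while in macrophages LPS libraries 1 and 3 lie above 0 for Per1, Nr1d1, Dbp and Nr1d2.

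Set side by side, Per1 was above the mean of its controls in every treated library of both tissues, by 1.18 to 2.08 in liver and by 0.21 to 3.24 in macrophages on the log2(FPKM + 0.5) scale. Nr1d1 was below its control mean in every treated liver library, by differences of -4.43 to -3.29, and above its control mean in every treated macrophage library, by 0.12 to 3.90. Dbp was below its control mean in every treated liver library (-3.75 to -2.82) and every LPS+MIC-1 macrophage library (-1.38 to -1.14), and above its control mean in the 3 LPS macrophage libraries (0.36 to 3.22). The lowest of the macrophage values with LPS were those of library 2, which for Nr1d1 and Dbp lay within the range of the controls. Since the tables were normalized separately, the difference between the tissues was not tested.

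The other regulators of the loop were taken as a list of 18 genes, all found, of which 12 passed the filter in each tissue. In liver with LPS 1 rose and 1 fell, against 13.4% and 11.2% of all genes tested, and the median Log2FC was 0.48 against 0.15 over all genes tested. Nfil3, a repressor that competes with DBP at the D-box, rose from 8.89, 14.0 and 10.2 FPKM to 33.0, 20.4 and 35.1 FPKM (Log2FC 1.37, limma adjusted p = 0.0127). Tef, an activator of the same D-box family as DBP, fell from 17.9, 27.5 and 28.4 FPKM to 8.82, 12.2 and 9.52 FPKM (Log2FC -1.22, limma adjusted p = 0.0109). Both were called with LPS+MIC-1 against control as well (Log2FC 1.79 and -1.58), and they were the only 2 of the list. Hlf, another activator of the family, did not follow Tef, at 3.19 to 4.83 FPKM in controls and 5.06 to 7.35 FPKM with LPS (Log2FC 0.61, limma adjusted p = 0.0528). Thus in the same livers Dbp and Tef were lower and Nfil3 higher. Rora, a receptor that activates Arntl at the element that REV-ERB binds, ranged from 0.128 to 3.65 FPKM in controls and from 0.199 to 1.91 FPKM with LPS. The E-box repressor Bhlhe40 was 4.12 to 17.3 FPKM in controls, 41.7 and 39.5 FPKM in LPS libraries 1 and 3 and 6.24 FPKM in library 2 (Log2FC 1.51, SE 0.741, limma adjusted p = 0.138). Cry2 was 2.5 to 3.49 FPKM in controls and 3.09 to 5.53 FPKM with LPS (Log2FC 0.44, SE 0.266), and Bhlhe41 was at most 1.32 FPKM in any liver.

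In macrophages none of the 12 was called over all 9 libraries in any comparison. Over the 8 libraries, 6 rose and 2 fell with LPS, against 16.3% and 17.9% of all genes tested, with a median Log2FC of 0.92 against -0.02. Bhlhe40 rose the most, from 7.30, 9.34 and 7.43 FPKM in controls to 115 and 113 FPKM in LPS libraries 1 and 3 (Log2FC 3.75, limma adjusted p = 5.72e-07), with 9.52 FPKM in library 2. Its relative Bhlhe41 (Log2FC 2.55), the casein kinase gene Csnk1e (2.15), the repressor gene Gm129, also called Ciart (1.99), and Tef (1.87) also rose. Btrc, the sixth, encodes a subunit of a ubiquitin ligase that acts on PER proteins (1.0802). Timeless (-2.98) and Tipin (-2.11), which fell, encode partners at the replication fork. With LPS+MIC-1 against LPS over the 8 libraries 2 rose, Nfil3 (1.15) and Timeless (1.19), and 5 fell, among them Bhlhe40 (-2.26), Tef (-2.23) and Bhlhe41 (-1.52), against 11.3% and 12% of all genes tested. Against control 2 rose (Bhlhe40 at 1.496 and Bhlhe41 at 1.03) and 2 fell (Timeless at -1.79 and Tipin at -1.67), against 7.55% and 8.2%. Cry2 was 1.89 to 2.85 FPKM in controls, 2.33 to 3.51 FPKM with LPS and 3.88 to 4.28 FPKM with LPS+MIC-1 and was not called, and Hlf and Rora were below 0.2 FPKM in every macrophage library.

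Genes that the clock is known to time in liver were taken as a second list of 12, of which 11 passed the filter in liver. With LPS 4 rose and 4 fell, against the same 13.4% and 11.2%, and the median Log2FC was -0.33 against 0.15. Cyp7a1, the rate-limiting enzyme of bile acid synthesis and a gene that REV-ERB and DBP are known to affect, fell from 19.6, 30.3 and 30.2 FPKM to 0.103, 0.927 and 0.0631 FPKM (Log2FC -5.08, limma adjusted p = 0.000246). Cyp2a5, a drug-metabolising enzyme under D-box control, fell from 509, 743 and 760 FPKM to 85.5, 48.0 and 62.8 FPKM (Log2FC -3.36, limma adjusted p = 0.000290). Elovl3, a fatty acid elongase (Log2FC -1.91), and the deubiquitinase gene Usp2 (-1.40) also fell. Insig2, which holds back SREBP processing and is repressed by REV-ERB, rose from 23.0, 18.3 and 2.66 FPKM to 115, 30.4 and 130 FPKM (Log2FC 2.79, limma adjusted p = 0.0308). Nampt, of NAD synthesis (1.97), also rose, as did Alas1 and Tfrc (1.19). With LPS+MIC-1 against control Insig2 (2.81) rose and Cyp7a1 (-5.27), Cyp2a5 (-3.54) and Usp2 (-1.48) fell. No gene of either list was called between LPS+MIC-1 and LPS livers.

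In macrophages 9 of the 12 output genes passed the filter. Wee1, a kinase that holds cells before mitosis and a classical E-box gene, was 3.93 to 5.76 FPKM in controls, 4.10 to 6.58 FPKM in the 3 LPS libraries and 0.993, 1.35 and 0.802 FPKM with LPS+MIC-1. It fell against LPS (Log2FC -1.93, limma adjusted p = 0.00175) and against control (Log2FC -1.78, limma adjusted p = 0.00197) over all 9 libraries, and over the 8 as well (Log2FC -2.10 and -1.78). Alas1, the first enzyme of heme synthesis, rose with LPS+MIC-1 against control (Log2FC 1.14, limma adjusted p = 0.000559) over 9 and over 8 libraries. No other gene of the list was called over the 9 libraries. With LPS+MIC-1 against LPS 1 of the 9 genes was thus called lower, where 1.81% of all genes tested were. Against control 1 was called higher and 1 lower, where 3.27% and 2.32% were. Over the 8, 2 of the 9 genes rose and 1 fell with LPS against control, against 16.3% and 17.9% of all genes tested. Por, the electron donor of cytochromes P450 (Log2FC 2.73), and Insig2 (1.06) rose and Tfrc, the transferrin receptor (-1.15), fell. Por was lower with LPS+MIC-1 than with LPS (-1.11) and higher than in control (1.62). In these 8 libraries 2 of the 9 genes were called lower with LPS+MIC-1 than with LPS, against 12% of all genes tested. Compared with control 2 were called higher and 1 lower, against 7.55% and 8.2%.

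The genes whose log2 values were most like those of Nr1d1 over the 9 livers were Car3 (Pearson r = 0.995), Fasn (0.988) and Cyp2c50 (0.987), of which Fasn encodes fatty acid synthase. Over the 9 macrophage libraries they were Hscb (0.998), Man2b2 (0.998) and Gadd45b (0.998). For Arntl they were Taf5l (0.871), Ctnnd1 (0.857) and Zfyve1 (0.855) in liver and Peg13 (0.929), 2210404J11Rik (0.918) and Slc25a20 (0.905) in macrophages. These values describe which genes share a member's pattern over the libraries, and that pattern follows the groups only in part. Macrophage LPS library 2 lay close to the controls, and among the LPS+MIC-1 livers Arntl was above 0 in library 1 alone. No p is given for these r values.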

How the data were processed

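RNA-seq of 18 samples was used, 9 of liver and 9 of RAW264.7 macrophages. The authors pseudoaligned reads sequenced at BGI to a RefSeq mm9 index with kallisto 0.45.0, brought them to genes with tximport, and used DESeq2 1.20.0 to make the deposited FPKM, whose library totals are scaled by size factors. Replicates were not pooled. Read counts are not analysed here. The authors' 6 DESeq2 comparison files (mean normalized count, fold change, SE, Wald statistic and p-values) were not used. All columns were matched to a group by name, and 0 were left unmatched.

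Each table was fitted alone with limma 3.58.1 (lmFit, contrasts, eBayes with trend) on log2(FPKM + 0.5), its 3 groups in 1 fit, over genes with a mean FPKM above 1, with Benjamini-Hochberg adjustment. FPKM do not bear a count test, and the study's text gives its liver threshold as a P-value, read here as adjusted. The 3 against 3 design allows no exact permutation p below 0.1 (two-sided), so no single-gene permutation test is given. Depth was estimated from the steps between low FPKM values, assuming fragments of 200 bases. Alternatives were another scaling, pseudocounts of 0.1 and 1, no filter, only 2 groups fitted, no trend, library weights, other thresholds and leaving out each library. Averaging the closest 2 libraries of each group and the fit of 8 macrophage libraries were added after seeing the data. On simulated data for LPS against control, genes changed by a log2 value of 3 were called in 90% of cases in liver (10147 genes), 83% with 9 macrophage libraries and 95% with 8 (9905 genes), and genes changed by 1.5 in 61%, 57% and 80%, with 0 in the wrong direction. The simulation drew noise independently for each gene and library, so it held no library displaced in many genes together, as macrophage LPS library 2 was. Its values for 9 macrophage libraries therefore do not describe the real fit, which called 0 of 9905 genes. The percentages given for liver do not describe the real liver fit either. Liver libraries also lay far from their group, with weights of 0.126 (LPS library 2), 0.183 (control library 1) and 0.284 (LPS+MIC-1 library 2). For LPS against control in liver, 2493 genes were called, and 151 with the closest 2 libraries of each group averaged.

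The members and lists were chosen with earlier results of these data known. Named in the text are the 10 members, at most 6 called genes of each list per comparison, a fixed set of partners (Cry2, Nfil3, Tef, Hlf, Rora, Bhlhe40 and Bhlhe41, with 1 more not reported here) and the 3 genes most like Arntl and Nr1d1. Thra and Sphk2 were named because their exons overlap members. R 4.3.3 ran limma, Python 3.11.15 ran all else (pandas 2.3.3, numpy 2.4.6), and plots were drawn with matplotlib 3.10.9. Positions are from GENCODE vM1 (mm9), and promoter windows are RefSeq's.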

Additional observations from a re-analysis of the deposited data

Results flagged for a closer look

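For some members all libraries of a treatment lay on the same side of the control mean in liver and on the opposite side in macrophages. The difference was not tested in any of these cases, since the tables were normalized separately. Values are mean differences on the log2(FPKM + 0.5) scale from the control mean, liver first and then all 3 macrophage libraries. With LPS they were -3.6174 and 2.5789 for Nr1d1, -3.1229 and 2.2019 for Dbp, -0.2137 and 1.1731 for Per2, and -0.0943 and 0.7832 for Per3. With LPS+MIC-1 they were -4.3681 and 0.5094 for Nr1d1, -0.9214 and 0.2329 for Per2, and -0.3396 and 0.1083 for Per3. Per3 was listed at 0 in 2 control livers and 1 control macrophage library, and Per2 and Per3 were below 2 FPKM in every macrophage library. In liver Per3 lay below its control mean only through control library 1 at 1.67 FPKM, so it gives no direction there. The Per2 values of the treated livers overlapped those of the controls with either treatment. The macrophage means with LPS include LPS library 2, which lay close to the controls for each of these genes.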

How the results depend on the processing

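Depth limits the lowest values most, with about 9 reads behind each control value of Arntl above 0 in liver. No paired analysis was possible because the columns carry no replicate number. In liver 4 members were called against control with LPS and with LPS+MIC-1, and 2 in each when the closest 2 libraries were averaged. Between LPS+MIC-1 and LPS livers the count of 0 became 1 with library weights. Over the 9 macrophage libraries the count of 0 with LPS against control became 4 with library weights, and 4 without LPS library 2. For LPS+MIC-1 against LPS it became 1 with equal sums of FPKM or a pseudocount of 0.1, 2 with an adjusted p threshold of 0.05, and 4 with library weights. For LPS+MIC-1 against control it became 1 with only 2 groups fitted or with library weights. Over the 8 libraries the count of 1 there became 2 with equal sums or a pseudocount of 0.1, 0 with a pseudocount of 1, and 3 with no minimum fold change.

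Leaving out 1 library gave 4 to 5 members in liver against control with either treatment and 0 to 0 between treatments. In macrophages it gave 0 to 4, 0 to 4 and 0 to 1 (LPS against control, LPS+MIC-1 against LPS and against control) over 9 libraries, and 4 to 4, 4 to 4 and 1 to 1 over 8. The counts of 4 and 1 over the 9 came without LPS library 2. The fifth liver member was Arntl (without LPS+MIC-1 library 1) or Per2.

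Signs turned for uncalled members only, and the cause was not tested. With equal sums Npas2 in liver turned to -0.064 (LPS against control) and -0.31 (LPS+MIC-1 against control), and Cry1 to -0.10 (LPS+MIC-1 against LPS). Cry1 in macrophages turned with equal sums to -0.46 (8 libraries: -0.53) for LPS against control, 0.37 (8 libraries: 0.44) for LPS+MIC-1 against LPS, and -0.089 (8 libraries: -0.089) against control. It also turned to -0.11 with library weights (LPS+MIC-1 against control) and to 0.10 with the closest 2 libraries averaged (LPS+MIC-1 against LPS). Leaving out 1 library gave ranges across 0 for liver Npas2 (-0.21 to 0.11, LPS+MIC-1 against LPS) and liver Arntl (-0.73 to 1.03, LPS+MIC-1 against control). In macrophages they were, for Arntl, -0.49 to 0.054 (LPS against control) and -0.025 to 0.36 (LPS+MIC-1 against control), and for Cry1 -0.31 to 0.024 (LPS+MIC-1 against LPS) and -0.088 to 0.17 (LPS+MIC-1 against control). With equal sums the calls of all genes in liver with LPS shifted from 1356 higher and 1137 lower to 797 and 1851, and with LPS+MIC-1 from 1396 and 1164 to 535 and 2584. Over the 8 macrophage libraries they shifted from 1610 and 1776 to 497 and 4577 with LPS, and from 1121 and 1189 to 3602 and 269 with LPS+MIC-1 against LPS. Between LPS+MIC-1 and LPS livers the count over all genes went from 0 to 35 without LPS library 2 and to 631 with library weights.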
